A study of Canis lupus familiaris with 36 samples.

Results

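The genes described here are 10 genes whose expression marked T-zone lymphoma (TZL), a lymphoma of mature T cells, among canine lymphomas: CCDC3, RBP4, F12, GLYAT, GBGT1, TCEA3, CSTA, RCN3, VSTM1 and KRTCAP3. They are 10 of 15115 genes with a probe set on the array and 10 of the 7500 genes that passed a filter on low values. They were chosen by their log2 intensities on these same arrays, high in TZL and low in the other subtypes, so the levels that set TZL apart are given as a description, with no test. Each gene is represented by 1 probe set, the one with the highest mean over all arrays.

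Tumour tissue from 35 dogs was profiled on 36 arrays. The tumours were primary samples that had been broken up mechanically and filtered, so other cells of the tissue are part of each value, and fewer cells of a type and less RNA per cell cannot be told apart. The TZL group held 9 dogs, of 7 to 11 years, 6 male and 3 female, 8 of them Golden Retrievers, all with low-grade disease. The other T-cell lymphomas were PTCL, 4 dogs of 6 to 14 years, 2 male and 2 female, 1 of them a Golden Retriever and 3 with high and 1 with intermediate grade, and LBT, 4 dogs of 3 to 10 years, 1 male and 3 female, 3 of them Golden Retrievers, all high grade. The B-cell lymphomas were MZL, 5 dogs of 4 to 10 years, 1 male and 4 female, 4 of them Golden Retrievers, all low grade. They also included DLBCL, 10 dogs of 4 to 14 years on 11 arrays, 4 male and 6 female, 6 of them Golden Retrievers, all high grade, and BL, 2 dogs of 2 to 5 years, 1 male and 1 female, 1 of them a Golden Retriever, both high grade. PTCL, MZL and DLBCL are the usual short forms of peripheral T-cell, marginal zone and diffuse large B-cell lymphoma, and LBT and BL are kept as the labels write them. The last dog, an 8-year-old female Golden Retriever with low-grade disease, was labelled NBNT, neither B nor T. Subtype, grade, breed and sex were therefore partly tied to each other, and MZL was the one group of several dogs that shared the low grade of TZL. The 25 dogs outside TZL and NBNT are called the other dogs below.

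T-zone lymphoma is a slowly growing lymphoma of dogs, frequent in Golden Retrievers, that is recognised in the clinic by T cells that lack CD45 on their surface. The 10 genes do not belong to a single pathway. CCDC3 and RBP4 encode secreted proteins and F12 a plasma clotting factor, while GLYAT and GBGT1 encode transferases of the mitochondrion and the Golgi apparatus. TCEA3 encodes a transcription elongation factor, CSTA a protease inhibitor, RCN3 a calcium-binding protein of the endoplasmic reticulum, and VSTM1 and KRTCAP3 membrane proteins. Several are best known outside lymphoid cells, GLYAT, RBP4 and F12 as liver genes and KRTCAP3 from keratinocytes.

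All values are log2 intensities after the authors' normalization between arrays. The minimum was set at log2 4, an intensity of 16, and a value below it is read as not above background. Brightness differs between probe sets, so the values rank dogs within a gene and not genes against each other. The labels were first set against lineage markers. CD3E, part of the CD3 signalling unit of T cells, lay between 11.25 and 12.24 in the 9 TZL dogs. PTPRC, which encodes CD45, ranged from 3.14 to 10.67 in TZL, and only TZL dog 5 was below the minimum. On 6 of the 36 arrays the probe set for the 3' end of actin read 14.0 to 14.4, against 10.8 to 12.5 on the other 30. These arrays, called the bright-actin arrays below, were those of TZL dogs 1, 2 and 7, PTCL dog 3 and DLBCL dogs 4 and 9. The difference between the 3' and 5' actin probe sets was 10.4 to 11.0 on the 3 TZL arrays of that kind and 2.90 to 5.75 on the other 6 TZL arrays.

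All 10 genes had their highest subtype mean in TZL. In 6 of the 10, CCDC3, GLYAT, VSTM1, F12, RCN3 and GBGT1, every TZL dog lay above every one of the 25 other dogs. Such a complete separation was seen in 45 of the 7500 genes tested, 0.6%. Because the 10 genes were picked for this pattern, nothing is read from that contrast. All 10 passed the filter, which kept genes that reached log2 4 in 4 or more of 34 dogs, but GLYAT, VSTM1 and F12 passed through TZL alone, and 6 would have passed without the TZL dogs. F12 and VSTM1 were at or above the minimum in all 9 TZL dogs and below it in all 25 others, and they were the 2 genes of the 7500 with that pattern. The 10 genes were therefore not equally restricted: some were off elsewhere, some were lower but present, and some were high in single dogs of other subtypes.

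**Figure D1:**
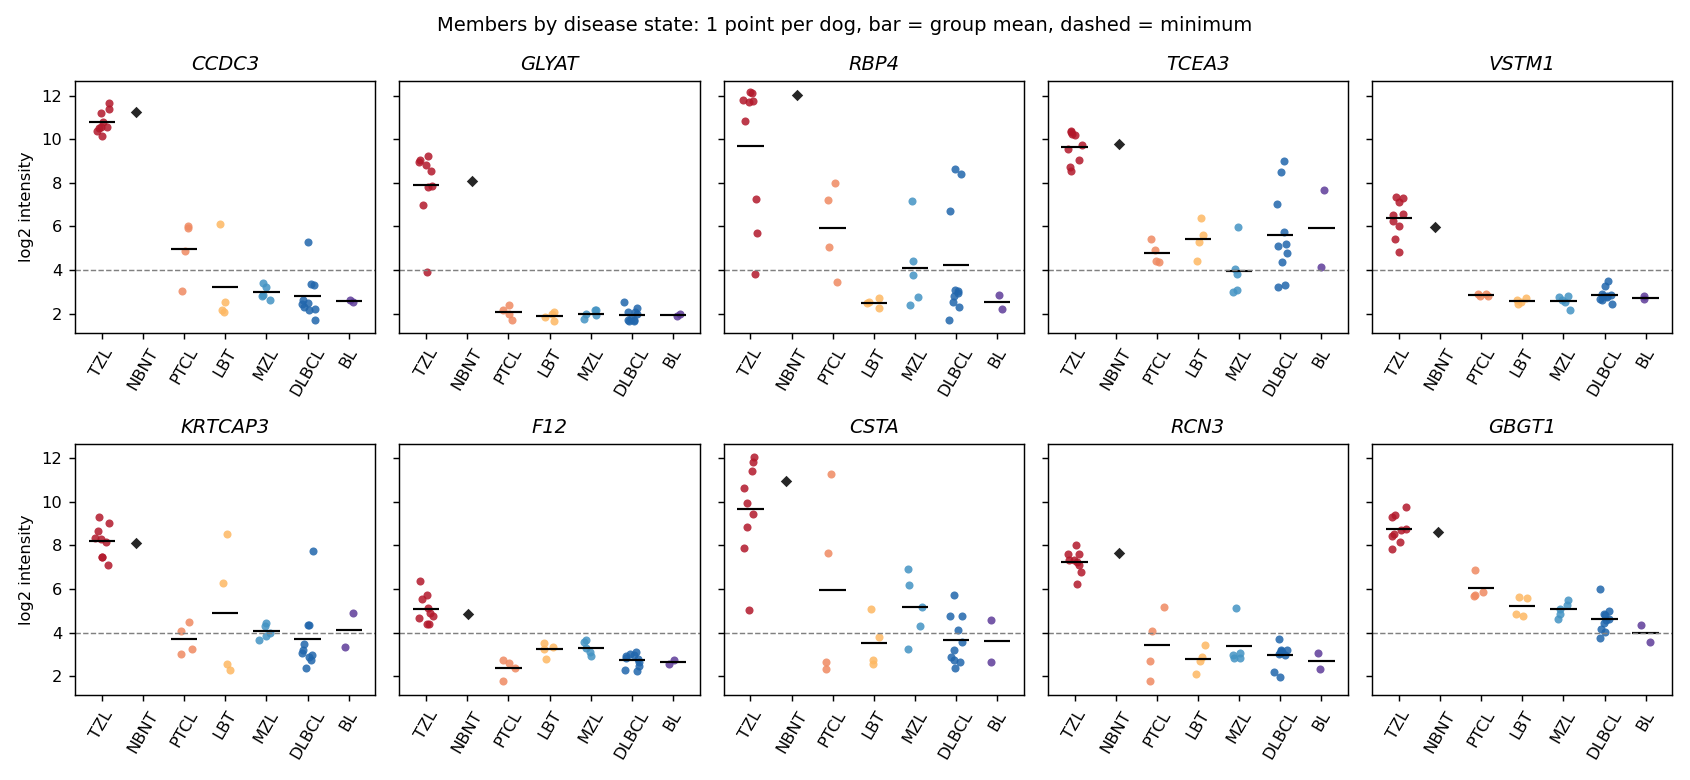
Each panel plots 1 gene, with log2 intensity on the vertical axis and the disease states on the horizontal axis. Each point is 1 dog, the bar is the group mean, the diamond is the NBNT dog and the dashed line is the minimum of 4. The TZL points of CCDC3, VSTM1, F12, RCN3 and GBGT1 form compact groups above all other dogs, while RBP4 and CSTA spread over a wide range within TZL.

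Among the secreted proteins, CCDC3, a coiled-coil protein known from adipocytes and endothelial cells, was the most sharply restricted gene. In the 9 TZL dogs CCDC3 had a lowest value of 10.16, a median of 10.57 and a highest value of 11.65, with a mean of 10.80 ± 0.51 (SD, n = 9). The 4 PTCL dogs had CCDC3 values of 5.94, 4.88, 3.05 and 6.04. The 4 LBT dogs read 2.17, 2.55, 6.11 and 2.07, so that LBT dog 3 stood well above the other LBT dogs. The 5 MZL dogs lay between 2.61 and 3.42, and the 10 DLBCL dogs between 1.73 and 5.29 with a median of 2.48. The 2 BL dogs read 2.52 and 2.63. The gap between the lowest TZL dog and the highest other dog, LBT dog 3, was 4.05, the widest of the 45 genes with complete separation. The next widest gap was 2.49, for the interferon-induced GTPase gene GBP5. The mean of TZL exceeded that of PTCL, the next subtype, by 5.82. When dogs below the minimum were counted at the minimum, the difference was 5.58 and the fold in intensity 48.0. CCDC3 has a second, dimmer probe set, which also read higher in TZL, 4.66 to 7.49, than in the other dogs, 1.62 to 2.33.

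RBP4, the carrier that takes retinol from the liver through the blood, behaved differently. Its TZL values by dog, from dog 1 to dog 9, were 10.81, 12.14, 7.26, 11.72, 12.13, 11.80, 11.74, 5.71 and 3.80. Thus 6 dogs were above 10 and dogs 3, 8 and 9 were well below them, with dog 9 under the minimum. The group mean was 9.68 ± 3.21 (SD, n = 9). Outside TZL, RBP4 was at or above the minimum in 8 of 25 dogs. The 4 PTCL dogs read 7.99, 5.04, 3.44 and 7.23. In MZL, dog 2 reached 7.14 and the other dogs lay between 2.39 and 4.43. In DLBCL the values ran from 1.69 to 8.65, with a median of 2.99, and DLBCL dog 3 was the highest dog outside TZL. All 4 LBT dogs, 2.27 to 2.70, and both BL dogs, 2.23 and 2.85, were below the minimum. The groups overlapped, and the lowest TZL dog lay 4.85 below DLBCL dog 3. A second RBP4 probe set spanned 2.18 to 10.51 in TZL and 1.71 to 4.77 elsewhere.

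F12, coagulation factor XII, which starts the contact pathway of clotting, was dim but clean. Its 9 TZL values ran from 4.39 to 6.36 with a median of 4.89 and a mean of 5.10 ± 0.66 (SD, n = 9). The other 25 dogs lay between 1.77 and 3.65, all below the minimum, and MZL dog 2 was the highest. By subtype the highest values were 2.74 in PTCL, 3.52 in LBT, 3.65 in MZL, 3.11 in DLBCL and 2.76 in BL. Because every other dog was below the minimum, the mean TZL intensity was at least 2.15-fold higher. The lowest TZL dogs, 3 and 9, lay just above the minimum at 4.39 and 4.40.

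Of the enzymes, GLYAT, which joins glycine to acyl-CoA compounds in liver and kidney mitochondria, was below the minimum in all 25 other dogs, where it ran from 1.65 to 2.53. The TZL dogs, from 1 to 9, read 7.88, 8.97, 3.89, 8.81, 9.05, 9.21, 8.53, 7.82 and 6.99. TZL dog 3 was the exception. Its value lay under the minimum though above every dog outside TZL, and the group mean was 7.90 ± 1.67 (SD, n = 9). With every value below the minimum counted at the minimum, that of TZL dog 3 included, the mean TZL intensity was 15.1-fold higher than in the other dogs. A second probe set annotated to GLYAT was below the minimum in all 34 dogs, 1.81 to 2.23 in TZL, and showed no such difference.

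GBGT1, the Forssman glycolipid synthase, was graded and not off elsewhere. Its TZL values ran from 7.83 to 9.76 with a median of 8.72 and a mean of 8.77 ± 0.63 (SD, n = 9). The PTCL dogs read 5.72, 5.85, 5.67 and 6.88, the LBT dogs 4.85, 5.63, 4.75 and 5.59, and the MZL dogs 4.87, 5.11, 5.52, 5.26 and 4.62. DLBCL ran from 3.74 to 6.00 and the BL dogs read 4.38 and 3.59. In all, 23 of the 25 other dogs were at or above the minimum. The difference from PTCL, the next subtype, was 2.73 and the fold 6.65, yet the lowest TZL dog still lay 0.95 above the highest other dog, PTCL dog 4.

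TCEA3, a tissue-restricted member of the TFIIS family of elongation factors, was also expressed outside TZL, at or above the minimum in 20 of 25 dogs. In TZL it ran from 8.54 to 10.36 with a median of 9.72 and a mean of 9.64 ± 0.71 (SD, n = 9). Other dogs reached or neared that range in 2 subtypes. DLBCL dog 6, the case with 2 arrays, read 9.00 and DLBCL dog 4 read 8.48, and BL dog 1 read 7.67. The PTCL dogs lay between 4.38 and 5.43, the LBT dogs between 4.41 and 6.37, and the MZL dogs between 2.98 and 5.98. Without DLBCL dog 6, TCEA3 too would have separated completely, which would make 7 genes of the 10. TCEA3 has 2 other probe sets. One read 8.15 to 9.77 in TZL, and the other was flat at 1.90 to 2.41 in TZL and below the minimum in every dog.

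CSTA, cystatin A, an inhibitor of cysteine cathepsins found in epithelia and in white blood cells, had the widest overlap. Its TZL values, from dog 1 to dog 9, were 9.94, 8.86, 7.90, 12.07, 11.84, 11.40, 10.63, 5.02 and 9.42. TZL dog 8 was far below the rest, and the mean was 9.68 ± 2.23 (SD, n = 9). Of the 25 other dogs 12 were at or above the minimum. The PTCL dogs read 11.28, 2.64, 2.33 and 7.67, so 1 PTCL dog exceeded 6 of the TZL dogs and a pair of PTCL dogs were below the minimum. The MZL dogs read 3.28, 4.30, 6.94, 6.19 and 5.20, LBT ran from 2.55 to 5.10, DLBCL from 2.37 to 5.71, and BL read 4.57 and 2.68.

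RCN3, a chaperone-like reticulocalbin of the secretory pathway, ran from 6.26 to 8.01 in TZL with a median of 7.32 and a mean of 7.25 ± 0.51 (SD, n = 9). Outside TZL it was at or above the minimum in 3 of 25 dogs, PTCL dog 4 at 5.20, MZL dog 3 at 5.14 and PTCL dog 1 at 4.10. LBT lay between 2.09 and 3.46, DLBCL between 1.97 and 3.72, and BL at 3.09 and 2.34. With dogs below the minimum counted at the minimum, the TZL mean exceeded that of PTCL by 2.93, a fold of 7.61, and the groups did not overlap.

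Of the membrane proteins, VSTM1, an inhibitory receptor otherwise known from granulocytes and monocytes, ran from 4.84 to 7.36 in TZL with a median of 6.54 and a mean of 6.38 ± 0.85 (SD, n = 9). All 25 other dogs lay between 2.18 and 3.50, with DLBCL dog 9 the highest, so the mean TZL intensity was at least 5.20-fold higher. KRTCAP3, a small keratinocyte-associated protein whose role is poorly known, ran from 7.13 to 9.31 in TZL, median 8.31, with a mean of 8.21 ± 0.74 (SD, n = 9). It was at or above the minimum in 10 of 25 other dogs. The LBT dogs read 2.56, 2.30, 8.53 and 6.28. DLBCL dog 8 read 7.72 against 2.37 to 4.36 in the other DLBCL dogs. PTCL lay between 3.02 and 4.50, MZL between 3.68 and 4.47, and BL at 4.90 and 3.32. LBT dog 3 and DLBCL dog 8 thus reached the TZL range.

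Next to TZL, the order of the other subtype means differed from gene to gene. PTCL came second for CCDC3, GLYAT, RBP4, CSTA, RCN3 and GBGT1, BL for TCEA3, DLBCL for VSTM1, LBT for KRTCAP3 and MZL for F12. Neighbours in these orders mostly differed by less than their spread. RBP4, for instance, had means of 4.21 ± 2.63 (SD, n = 10) in DLBCL and 4.10 ± 1.88 (SD, n = 5) in MZL, and the VSTM1 means below TZL ran from 2.57 to 2.86. Counted per dog, TZL dogs had 9 or 10 of the genes at or above the minimum. PTCL dogs had 2 to 7, LBT dogs 2 to 4, MZL dogs 1 to 4, DLBCL dogs 1 to 5 and BL dogs 1 to 4. The 2 dogs with 7 were PTCL dogs 1 and 4.

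The NBNT tumour expressed all of these genes. In that dog 10 of 10 were at or above the minimum, against 83.9% of all genes tested, and 10 of 10 lay within the range of the TZL dogs, against 89.4% of all genes tested. In 8 of the 10 the NBNT dog lay above every one of the 25 other dogs, against 301 of 7500 genes tested, 4.01%. With 1 dog there is no test. CCDC3 read 11.26 in the NBNT dog, above 7 of the 9 TZL dogs and 5.14 above the highest other dog. GLYAT read 8.08 there and RBP4 12.04, which was above 7 TZL dogs and in the range of the 6 RBP4-high ones. TCEA3 read 9.79, VSTM1 5.99 and F12 4.87. RCN3 read 7.67 and GBGT1 8.60. The exceptions were KRTCAP3, which at 8.10 was exceeded by LBT dog 3, and CSTA, which at 10.96 was exceeded by PTCL dog 1. Measured from the TZL means, the NBNT values ranged from 0.39 lower, for VSTM1, to 2.36 higher, for RBP4.

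**Figure D2:**
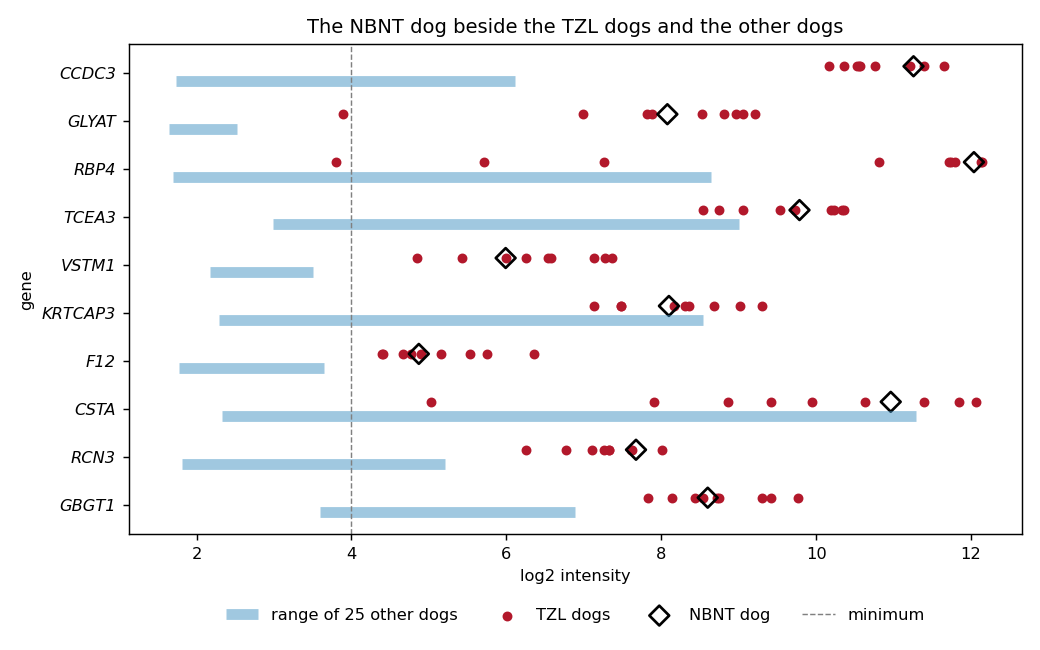
For each gene on the vertical axis, the horizontal axis gives log2 intensity, with red points for the 9 TZL dogs, an open diamond for the NBNT dog and a blue bar for the range of the 25 other dogs. The diamond falls among the red points in all 10 genes and to the right of the blue bar in 8.

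The likeness of the NBNT dog to TZL was not limited to these 10 genes. Of the 39 other genes with complete separation of TZL, the NBNT dog was above every other dog in 39 and reached the lowest TZL dog in 38. The exception was UBE2F, a ubiquitin-conjugating enzyme gene. In 20 genes every TZL dog lay below every other dog, and the NBNT dog did so too in 19. By contrast, 32 genes had every LBT dog, 29 every BL dog and 2 every MZL dog above all remaining dogs, and the NBNT dog was among the high dogs in 0 of each. PTCL and DLBCL had 0 such genes, so the NBNT dog could not be set against them in this way. Over the 7500 genes, which are not independent replicates, the correlation of the NBNT dog with single TZL dogs was 0.932 to 0.978. With single dogs of the other subtypes it was 0.812 to 0.926. The mean absolute difference from the subtype mean was 0.349 for TZL and 0.655 to 0.902 for the others.

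The lineage markers of the NBNT dog were measured as RNA of the whole tissue, which need not follow the method behind its label as neither B nor T. CD3E read 11.39 in that dog, inside the TZL range. The summed intensity of 10 T-cell markers was 19160, against 17990 to 29226 in TZL and 1740 to 8219 in MZL, DLBCL and BL. In PTCL it was 7384 to 26002 and in LBT 24517 to 33712. CD8A was below the minimum at 3.79 and CD4 read 5.23. The summed intensity of the B-cell markers was 2592, against 349 to 3182 in TZL and 3715 to 7251 in the B-cell lymphomas. In PTCL it was 153 to 3551 and in LBT 42.0 to 1955. The B-cell gene MS4A1 read 10.13, against 2.91 to 10.55 in TZL and 6.80 to 10.80 in PTCL. The CD3E and MS4A1 values and both marker sums of the NBNT dog thus lay inside the range of PTCL as well as that of TZL. The label is kept here, and no new name is given to the tumour.

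**Figure D3:**
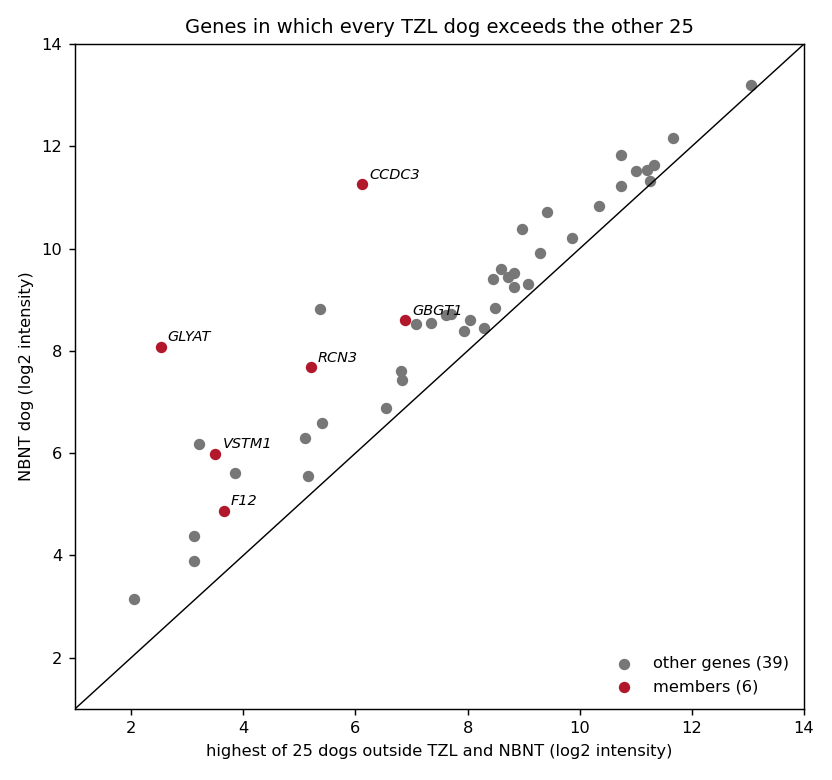
Each point is 1 of the 45 genes in which all TZL dogs exceed all other dogs; the horizontal axis is the highest of the 25 other dogs and the vertical axis the NBNT dog, both in log2 intensity. All 45 points lie above the diagonal of equality, and CCDC3 and GLYAT lie farthest from it.

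Within TZL the lowest dogs recurred from gene to gene, though not in every gene. TZL dogs 3 and 9 were each among the 2 lowest dogs in 7 of the 10 genes, with a mean rank of 2.2 counted from the lowest of 9. TZL dog 9 was the lowest in 5 of the 10, RBP4, VSTM1, KRTCAP3, RCN3 and GBGT1. Dog 3 was the lowest in GLYAT and F12, dog 8 in TCEA3 and CSTA, and dog 1 in CCDC3. Dog 8 also held the highest GBGT1 value, 9.76, so a dog low in one gene was not low in all. Dog 3 had the lowest summed T-cell markers of the TZL dogs, 17990, and the highest B-cell, macrophage and neutrophil sums, 3182, 10461 and 4496. Dog 9 had sums of 20065, 1822, 6690 and 772. Dog 2, with sums of 19355, 1037, 4575 and 4400, was near dog 3 in its T-cell and neutrophil sums. Yet it held the highest CCDC3 and RBP4 values. The part of these markers in the low values was not tested. The spread over the 9 dogs was smallest for CCDC3 and RCN3, each with an SD of 0.51, and largest for RBP4, with an SD of 3.21. CD4 and CD8A, the co-receptors that divide T cells into helper and cytotoxic types, varied as widely. The CD4 values of TZL dogs 1 to 9 were 6.45, 3.05, 8.61, 4.51, 3.08, 4.52, 4.12, 8.58 and 8.42. The 3 dogs lowest in RBP4, dogs 3, 8 and 9, were the 3 dogs highest in CD4. The same 3 dogs were also the lowest in GLYAT and TCEA3. RBP4 defined the 3 dogs, so it counts by construction among the 3 of the 10 genes with that pattern. Over all genes tested 144 of 7500 had it, 1.92%, and the shares are not compared. In GLYAT, dog 8 at 7.82 was only just below dog 1 at 7.88. The pattern was seen after the values were known and has no test. CD8A was high in dogs 5, 6 and 7, at 10.97, 10.60 and 8.52, and those dogs had RBP4 values of 12.13, 11.80 and 11.74. TZL dogs 2 and 4 were high in RBP4 with CD8A at 7.11 and 2.85.

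**Figure D4:**
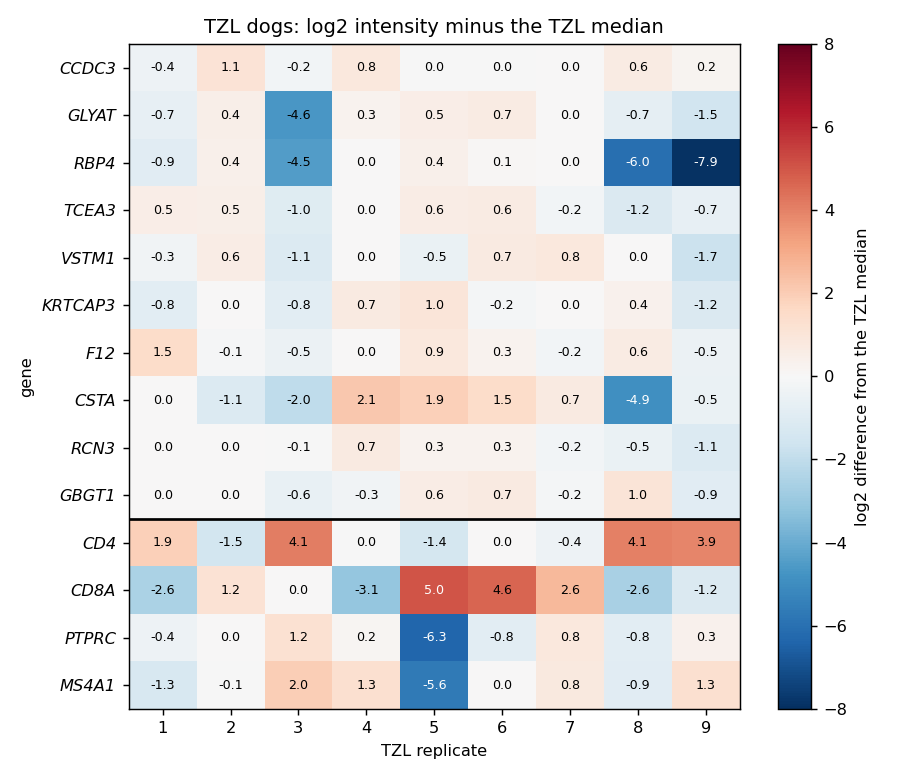
The colour and number in each cell give the log2 difference of 1 TZL dog (columns, dogs 1 to 9) from the TZL median of that gene (rows); the 4 rows under the black line are lineage genes that are not among the 10. Dogs 3, 8 and 9 are low for RBP4 and high for CD4, and dog 5 is low for PTPRC and MS4A1 while its values for the 10 genes are near or above the median, apart from VSTM1.

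TZL dog 5 had few macrophage markers. All marker sums given here are of linear intensities, so the brightest gene of a list weighs most. For macrophages and monocytes that was LYZ, at 7.71 in TZL dog 5, where 1 of 12 markers was at or above the minimum. In that dog the summed intensity of the macrophage and monocyte markers was 274, the lowest of the 34 dogs. That of the neutrophil and mast cell markers was 85.9, the lowest in TZL, and that of the B-cell markers was 440, above dogs 1 and 8 at 426 and 349. Dogs 1 and 8 had 5 and 4 of 7 B-cell markers at or above the minimum, and dog 5 only 1, CD79A at 8.65. In dog 5 PTPRC read 3.14 and MS4A1 2.91. In the same dog CSTA read 11.84, RBP4 12.13, GLYAT 9.05 and KRTCAP3 9.31, the last being the highest of the group. For the cell types best known for these genes, the whole lists gave mixed levels in TZL. Of 11 hepatocyte markers 10 were below the minimum in every TZL dog, as were 6 of 8 adipocyte, 8 of 10 epithelial, 7 of 10 fibroblast and 9 of 10 endothelial markers. Albumin and transthyretin were below it in every other dog as well. The epithelial keratin KRT18 was above the minimum in every TZL dog, from 6.20 to 9.60, and 4.45 higher in TZL than in MZL (limma adjusted p = 0.00124). It was not called against PTCL (difference -0.26, limma adjusted p = 0.911) or LBT (difference 2.72, limma adjusted p = 0.0535). The summed epithelial and keratinocyte markers were 127 to 986 in TZL and 58.6 to 107 in MZL. They were 273 to 420 in PTCL, 53.3 to 2053 in LBT, 43.9 to 2318 in DLBCL and 55.0 to 177 in BL. The collagen genes COL1A1, COL1A2 and COL3A1 and the endothelial gene PECAM1 also reached the minimum in TZL dogs. Of the macrophage and monocyte markers 3, CD163, MSR1 and VSIG4, were below the minimum in every TZL dog. Their summed intensity ran from 274 to 10461 in TZL and from 1636 to 10156 in the other dogs. Of 10 neutrophil and mast cell markers 4, ELANE, CSF3R, CPA3 and KIT, were below the minimum in every TZL dog. S100A8 ran from 4.59 to 11.32 in TZL. The sums of this list ran from 85.9 to 4496 in TZL and from 62.5 to 3629 in the other dogs. Their part in the VSTM1 values was not tested.

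Markers of other cells went with some high values outside TZL but not with all. The 3 other dogs highest in KRTCAP3, LBT dog 3, DLBCL dog 8 and LBT dog 4, were also the 3 highest in EPCAM, an epithelial adhesion gene, at 10.75, 10.25 and 9.48. The summed epithelial and keratinocyte markers were 2053 in LBT dog 3, 2318 in DLBCL dog 8 and 782 in LBT dog 4. DLBCL dog 3 went against this, with a sum of 1773, EPCAM at 8.91 and 5 of 10 epithelial markers at or above the minimum, but KRTCAP3 at 4.36. TZL dogs 7 and 5 had sums of 986 and 793. In the 3 dogs high in KRTCAP3 only EPCAM and KRT18, of 10 epithelial markers, were at or above the minimum, while CDH1, KRT8, DSP and CLDN4 were below it. In TZL, EPCAM ran from 3.02 to 8.45. The PTCL dogs 1 and 4, high in CSTA and RBP4, had summed macrophage and monocyte markers of 5761 and 8406 and summed neutrophil and mast cell markers of 1427 and 2268. The PTCL group as a whole had 5761 to 10156 and 117 to 2268. PTCL dog 1 thus had the lowest macrophage sum of the group. The highest, 10156, was that of PTCL dog 3, with CSTA at 2.33, RBP4 at 3.44 and the lowest neutrophil sum, 117. The part of these markers in the values of KRTCAP3, CSTA and RBP4 was not tested.

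The contrasts that leave out TZL were fitted with limma over all 7500 genes, with Benjamini-Hochberg adjustment and a call at an adjusted p under 0.05. They are not independent of the choice of the genes, which favoured low levels outside TZL, so the counts are not read against those of all genes. GLYAT, VSTM1 and F12 were below the minimum in every dog of these contrasts and had no measurable difference there. The other T-cell lymphomas, PTCL and LBT, were compared with the B-cell lymphomas as the difference of their mean subtype levels. Of the 10 genes 2 were called, against 35.3% of all genes, and both were higher in the T-cell lymphomas, as were 17.5% of all genes. GBGT1 had means of 5.62 and 4.56, a difference of 1.06 ± 0.26 (SE; limma adjusted p = 0.00186). CCDC3 (limma adjusted p = 0.022) was below the minimum in all but 1 of the B-cell lymphomas and in 3 of 4 LBT dogs. With values below 4 set to 4, its difference was 0.83 ± 0.27 (SE; limma adjusted p = 0.016). Without LBT dog 3 the difference, on unfloored values, was 0.84 (limma adjusted p = 0.0877). The CCDC3 call was also lost without any one of BL dog 1, PTCL dog 1 or PTCL dog 4 and in Golden Retrievers only. Over all alternatives its adjusted p ran from 0.00143 to 0.175, against 0.00039 to 0.0178 for GBGT1.

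Between PTCL and LBT, 0 of the 10 genes were called by limma, against 0.68% of all genes. An unadjusted p under 0.05 was found for 4, against 934 of all genes tested. Of the 4, F12 was below the minimum in both groups. GBGT1 was 0.83 higher in PTCL. RBP4 was below the minimum in all 4 LBT dogs and had a PTCL mean of 5.93 ± 2.08 (SD, n = 4). CCDC3 was below it in 3 of 4 LBT dogs, and with values below 4 set to 4 it was 0.69 higher in PTCL (limma adjusted p = 0.533). Without LBT dog 3, CCDC3 was called on unfloored values (limma adjusted p = 0.0327), all 3 remaining LBT dogs being below the minimum. Between DLBCL and MZL, 0 of the 10 were called by limma, against 0.0% of all genes. There 2 had an unadjusted p under 0.05, against 977 of all genes tested. They were TCEA3, higher in DLBCL by 1.64, and F12, with both groups below the minimum. Between BL and DLBCL, with 2 BL dogs, 0 of the 10 were called by limma, against 0.0267% of all genes. There 0 of the 10 had an unadjusted p under 0.05, against 426 of all genes tested.

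Within TZL, the 3 bright-actin arrays were compared with the other 6. By limma, 0 of the 10 genes were called, against 9.4% of all genes (705 genes). An unadjusted p under 0.05 was found for 0 of the 10, against 1850 of all genes tested. The differences ran from -0.25 for KRTCAP3 to 2.83 for RBP4, whose 3 low dogs were all outside the bright-actin arrays. The genes were chosen on both kinds of array together, so their levels on each kind are a description only. On the bright-actin arrays, with 3 TZL and 3 other dogs, 10 of 10 genes had all TZL dogs above the others, with differences of mean of 2.70 to 7.20. On the remaining arrays, with 6 TZL and 22 other dogs, 6 of 10 did, with differences of 2.11 to 7.62. RBP4, TCEA3, KRTCAP3 and CSTA overlapped there. A separation of 3 dogs from 3 is easier to reach than one over all dogs. The share of all genes with it was not counted for either kind of array, so these counts are not read. Between the 6 male and 3 female TZL dogs, 0 of the 10 genes were called by limma, against 0.0% of all genes. There 0 of the 10 had an unadjusted p under 0.05, against 607 of all genes tested. CSTA differed most, with means of 9.03 in males and 10.96 in females.

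The likeness of other genes was measured as Pearson's r with the mean standardised value of the 10 genes over 34 dogs, which share the difference between TZL and the rest, so r is a description with no p. The 10 nearest genes had r from 0.894 to 0.932. They were GBP5, PLEC, UBE2F, TNFRSF25, IL2, GLIPR2, PLSCR3, PLP2, ITGA1 and MAPKAPK3. GBP5 had a mean of 8.61 ± 0.56 (SD, n = 9) in TZL and 3.69 ± 0.94 (SD, n = 25) in the other dogs, and 8.82 in the NBNT dog. TNFRSF25, a death-domain receptor of T cells, had means of 8.47 and 3.19, and IL2, the T-cell growth factor, 8.75 and 2.80. PLEC encodes the cytoskeletal linker plectin and ITGA1 an integrin chain that binds collagen. Of the 10 nearest genes 7 separated TZL completely, and in 9 the NBNT dog lay in the TZL range. Among the 10 genes themselves, r with the mean of the other 9 ran from 0.784 for KRTCAP3 to 0.958 for GLYAT. The single nearest gene was GBP5 for CCDC3 and TCEA3, PLEC for GLYAT, CD9 for RBP4 and ITGA1 for VSTM1. It was BIN2 for KRTCAP3, UBE2F for F12, the chemokine gene CCL21 for CSTA, C3H4orf48 for RCN3 and PLP2 for GBGT1.

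Genes that lie beside the 10 on their chromosomes were looked up as well. In a RefSeq gene table of the dog assembly UU_Cfam_GSD_1.0, 9 of the 10 could be placed, and the nearest measured gene on each side gave 18 neighbours, of which 0 separated TZL completely, a pattern of 0.6% of all genes, so a count of 0 among 18 says nothing about neighbours. In limma's fit OPTN and CAMK1D, on either side of CCDC3, were higher in TZL than in PTCL, by 1.38 (adjusted p = 0.0315) and 2.13 (adjusted p = 0.00155). OPTN had means of 9.82 in TZL and 7.72 in the other dogs, and CAMK1D of 9.41 and 8.37. FCGRT, the neonatal Fc receptor gene next to RCN3, was 3.15 higher in TZL than in LBT (limma adjusted p = 0.00102). In all, 2 of the 18 were higher and 2 lower in TZL than in PTCL, 4 higher and 2 lower than in LBT, and 3 higher and 1 lower than in MZL. Over all genes 13.7%, 30.1% and 27.5% were called in these comparisons, and nothing is read from the counts among neighbours.

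Relatives of the 10 genes, in 8 lists of families and pathways with 76 other genes tested, were compared between TZL and the 3 subtypes closest to it in lineage or grade. The 3 comparisons share the TZL dogs. Against PTCL, 5 of the 76 were higher and 6 lower by limma, 14.5%, against 13.7% of all genes, of which 6.07% were higher and 7.6% lower. Against LBT 18 were higher and 11 lower, 38.2% against 30.1% (12.4% higher and 17.8% lower), and against MZL 16 were higher and 15 lower, 40.8% against 27.5% (12.3% higher and 15.2% lower). The median differences over the 76 were 0.05, 0.38 and 0.18, against -0.03, -0.05 and -0.08 over all genes. The relatives thus moved in both directions, with medians near 0 against PTCL, and the count against PTCL was the least stable, 4 without the bright-actin arrays, 5 without PTCL dog 2, 6 without TZL dog 5, TZL dog 6 or PTCL dog 3, and 7 without TZL dog 1 or PTCL dog 4.

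Around RBP4, 6 retinoid genes were tested, and RARA, a retinoic acid receptor gene, was the 1 called against PTCL, 1.15 higher in TZL (limma adjusted p = 0.0358), with a mean of 4.67 ± 0.63 (SD, n = 9). Transthyretin, the plasma partner of RBP4, was below the minimum in every TZL dog and in every other dog. Around F12, 6 clotting and contact genes were tested and PLAT, tissue plasminogen activator, was lower in TZL than in PTCL (limma adjusted p = 0.00013) and below the minimum in every TZL dog, against a PTCL mean of 6.84 ± 3.03 (SD, n = 4). Against LBT 3 of the 6 were higher and 1 lower. KLKB1, plasma prekallikrein, the substrate of activated factor XII, was 3.70 higher in TZL than in LBT (limma adjusted p = 0.000439), with a TZL mean of 6.68 ± 1.54 (SD, n = 9) and 7.36 in the NBNT dog. It was not called against PTCL (difference 2.13, limma adjusted p = 0.0596) or MZL (difference 0.60, limma adjusted p = 0.562), and DLBCL dog 5 reached 8.14, near the TZL highest of 8.17.

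Around GLYAT, 4 genes of glycine and acyl-CoA metabolism were tested and AMT, a subunit of the glycine cleavage system, was higher in TZL than in PTCL, LBT and MZL, by 1.43, 2.13 and 2.41 (limma adjusted p = 0.0193, 0.000262 and 2.65e-05). Around GBGT1, 7 genes of glycosphingolipid synthesis were tested, with 1 lower than in PTCL, and 1 higher and 1 lower against each of LBT and MZL. UGCG, which makes glucosylceramide, was 1.13 higher in TZL than in LBT (limma adjusted p = 0.0142). B4GALT6, the gene lower than in PTCL, was below the minimum in every TZL dog.

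Among 18 TFIIS relatives and elongation factors, 1 was higher and 1 lower than in PTCL, TCEANC by 0.66 and TCEANC2 by -0.69 (limma adjusted p = 0.04 and 0.0456). Against LBT and MZL, 3 and 2 were higher and 3 and 2 lower. TCEAL1 was 2.33 higher than in LBT and 2.48 higher than in MZL (limma adjusted p = 0.0112 and 0.00459). TCEA1, the general form of the factor, was 1.14 lower than in MZL (limma adjusted p = 0.0157).

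Among 12 cystatins and cysteine cathepsins, 2 were higher and 3 lower in TZL than in PTCL, 3 and 2 against LBT, and 1 and 5 against MZL. CST7, the leukocyte cystatin F, was higher in all 3 comparisons, by 2.37, 2.66 and 3.20 (limma adjusted p = 0.00239, 0.000269 and 1.32e-05). CTSH, a lysosomal cathepsin, was lower in all 3, by 1.99, 1.74 and 2.68 (limma adjusted p = 0.0285, 0.0313 and 0.000767). CTSK and CTSB were lower than in PTCL, and CTSZ, CTSO, CTSB and LGMN lower than in MZL. Macrophage and monocyte markers, which are rich in cathepsins, had summed intensities of 274 to 10461 in TZL, 5761 to 10156 in PTCL and 5250 to 9042 in MZL, and their part in the cathepsin differences was not tested.

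Among 17 reticulocalbins and chaperones of the endoplasmic reticulum, 0 were called against PTCL by limma, with 3 at an unadjusted p under 0.05. Against LBT 4 were higher and 2 lower, and against MZL 7 were higher and 2 lower. SDF4, a member of the same calcium-binding family as RCN3, was 0.94 higher in TZL than in MZL (limma adjusted p = 5.43e-06) and 0.44 higher than in LBT (adjusted p = 0.0197). DNAJB9, a co-chaperone, was 1.59 and 2.36 higher (limma adjusted p = 0.00203 and 5.32e-05). RCN2 was 0.81 lower than in LBT (limma adjusted p = 0.00447). Among 6 paired and inhibitory leukocyte receptors, the class that VSTM1 belongs to, 0 were called against PTCL by limma, with 0 at an unadjusted p under 0.05, 2 were higher than in LBT and 4 lower than in MZL. These 4 were FCRL1, CD22, FCRLA and CLEC12A, of which FCRL1, CD22 and FCRLA are B-cell genes. The B-cell marker sums were 349 to 3182 in TZL and 5105 to 6767 in MZL, and their part in these differences was not tested.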

How the data were processed

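The values the authors deposited are linear intensities of probe sets, made with GCRMA per the submitters' processing notes, in a version not given in the sources used here. Here log2 was taken after raising any intensity below 1 to 1. For the repeated DLBCL case the mean of its 2 arrays was used, and no test included the NBNT dog. Gene names came from the platform annotation, where 29254 of 43035 probe sets had 1 symbol, 439 several and 13231 none; 9 of the 10 genes were found in the gene table by identifier. The probe set with the highest mean stood for a gene. Genes at log2 4 or more in at least 4 of 34 dogs were tested.

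Subtypes were compared in a fit of 6 subtype means over 34 dogs, and array kind and sex in fits over the 9 TZL dogs, with R 4.3.3 and limma 3.58.1 (lmFit, eBayes, two-sided, Benjamini-Hochberg over 7500 genes), a procedure tested on simulated data. A replicate is a dog. The number of arrays limits the precision. The members and lists were chosen with earlier results of these data known. Genes named beside the 10 were the 10 nearest by Pearson's r, the nearest to each, the nearest measured chromosomal neighbours, up to 3 genes of each family list with the smallest p against PTCL, and PTPRC, CD3E, CD4, CD8A and MS4A1. Other family genes and markers, and the dogs singled out, were chosen after their values were seen. Bounds set values below the minimum to the minimum. Alternatives covered filters, normalization, probe sets, array kind, breed, sex and each dog left out.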

Additional observations from a re-analysis of the deposited data

Results flagged for a closer look

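In 50 groups of 4 to 10 dogs, 1 per gene and subtype, 6 held a dog whose distance from the rest was large for the range of its group. The groups share dogs and many hold values below the minimum, so no chance rate is set beside this count. LBT dog 3 read 6.11 for CCDC3, with the next LBT dog at 2.55. DLBCL dog 4 read 5.29 for CCDC3, with the next at 3.37. TZL dog 3 read 3.89 for GLYAT, below the next TZL dog at 6.99. DLBCL dog 8 read 7.72 for KRTCAP3, with the next at 4.36. MZL dog 3 read 5.14 for RCN3, with the next at 3.09. PTCL dog 4 read 6.88 for GBGT1, with the next at 5.85. The NBNT dog, which entered no comparison of groups, was above all 25 other dogs outside TZL in 8 of the 10 genes.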

How the results depend on the processing

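The complete separation of TZL held in 6 of the 10 genes after centring, quantile normalization, averaging the probe sets of a gene and leaving out the bright-actin arrays, and in 6 to 7 with 1 dog left out. The genes at or above the minimum in the NBNT dog stayed at 10 in the 3 alternatives run. Between the other T-cell and the B-cell lymphomas, the count of 2 became 1 in Golden Retrievers only and ran from 1 to 2 with 1 dog left out. Between PTCL and LBT it ran from 0 to 1, and between DLBCL and MZL, by array kind and by sex it stayed at 0. Family genes called between TZL and PTCL fell from 11 to 5 with no filter, 4 without the bright-actin arrays and 7 in Golden Retrievers only, and ran from 5 to 12 with 1 dog left out. Against LBT they ran from 22 to 30 and against MZL from 23 to 33. The mean of TZL minus that of the next subtype changed without the bright-actin arrays from 5.82 to 5.18 for CCDC3, from 3.75 to 1.98 for RBP4 and from 3.69 to 2.41 for CSTA, the last 2 moves being over 1.5 times. With another probe set it was 4.04 for CCDC3, 2.51 for KRTCAP3, 0.21 for TCEA3 and 0.02 for GLYAT. The cause was not tested. No difference reversed. No paired analysis was possible because the labels give no replicate numbers shared between groups. Single dogs, dim probe sets near the minimum (F12) and the ties among subtype, grade and breed limit what these arrays show.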
